A study of Mus musculus with 6 samples.

Results

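The Wnt pathway genes described here are the secreted Wnt ligands, their receptors and co-receptors and the proteins that carry the signal within the cell. They were chosen by name, as genes that the annotation of the array pairs with a single symbol and whose symbols belong to the Wnt, frizzled, Lrp, R-spondin, Lgr, Dishevelled, Axin, Apc, Gsk3, casein kinase, beta-catenin, Tcf7l, Tle, Celsr, Vangl or Daam families or are Porcn, Ryk, Ror1, Ror2, Nlk, Bcl9 or Bcl9l. The naming rule uses no measured value, although it was set with earlier results of these data known. The rule found 71 genes among 13840 genes named by 1 symbol. Of these, 41 had a value on all 6 arrays, 19 had values on 1 to 5 arrays and 11 had no value on any array.

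RNA came from inguinal fat, a subcutaneous depot, of male C57BL/6J mice, an inbred strain. High gainers, the mice with high weight gain, and low gainers, those with low weight gain, were both fed the high saturated fat diet D12331 for 4 weeks starting at 8 weeks of age. The labels put the start of single housing at weaning and the methods of the study put it later. RNA of 8 mice was combined into 1 pool for high gainers, and RNA of 8 mice into 1 pool for low gainers. Each pool was hybridized to 3 one-color arrays, which are technical repeats. An n of 3 therefore counts arrays, and each test below compares these 2 pools and not the mice within them. Signals are normalized intensities on a linear scale, in arbitrary units that cannot be compared between probes. The question was whether genes of the Wnt pathway differed between mice that gained much and little weight on the same diet.

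Wnt proteins are lipid-modified signals. In the canonical branch a Wnt binds a frizzled receptor together with an Lrp co-receptor, Dishevelled is recruited, and the destruction complex of Axin, Apc, Gsk3 and casein kinase 1 stops marking beta-catenin for breakdown, so that beta-catenin enters the nucleus and works with Tcf/Lef factors. Other branches act without beta-catenin through planar polarity proteins or calcium. In fat, canonical Wnt signals are known to hold preadipocytes undifferentiated, Wnt10b being the ligand most studied in this role.

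The 41 genes with complete values held 31 with a log2 ratio of high over low gainers above 0 and 10 below 0. Of all 8596 genes tested, 4867 lay above 0 and 3729 below 0. A gene was called when limma gave a Benjamini-Hochberg adjusted p under 0.01 over all 15821 tested probes and a fold change of at least 1.5. By this rule 2 of 41 genes, Csnk2a1 and Fzd2, rose in high gainers (4.88%, against 2.91% of the 8596 genes tested, each by its brightest probe), and 0 fell (against 4.04% of the genes tested). At an unadjusted p under 0.05 from limma, 14 of 41 were higher (34.1%, against 18.3% of the genes tested) and 3 were lower (7.32%, against 12.5%). The samples are whole tissue, in which fewer cells of a type and less RNA per cell cannot be told apart. The methods' t-test, which for 2 groups is their analysis of variance, at an unadjusted p of 0.01 with the same fold threshold, marked 6 genes as higher (14.6%, against 3.47% of the genes tested) and 0 as lower (against 4.39%). These 6 genes were Csnk2a1, Fzd2, Lrp5, Vangl1, Wnt2 and Wnt5a, and none of them had an adjusted p under 0.01 by the methods' t-test after Benjamini-Hochberg adjustment.

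With an adjusted p under 0.05 from limma and no fold threshold, 8 genes were higher, the same 6 with Fzd4 and Fzd6 (19.5%, against 9.62% of the genes tested), and 0 were lower (against 7.57%). All 3 high-gainer arrays lay above all 3 low-gainer arrays in 14 genes (34.1%, against 22.0% of the genes tested), and all 3 lay below in 2 genes, Tle4 and Tle5 (4.88%, against 15.9%). The median log2 ratio over the 41 genes was 0.21, beside 0.04 over the genes tested. It was 0.13 in the 24 genes with brighter probes and 0.31 in the 17 genes with dim probes, a dim probe being one in the lowest 33.3% of tested probes by mean signal. Centring the arrays on the median change of 12 adipocyte markers adds -0.20 to every log2 ratio. The median of the 41 genes was then 0.01, beside -0.16 over the genes tested, and 22 of 41 lay above 0, beside 2372 of 8596 genes tested, so the distance between the medians was as before.

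**Figure D1:**
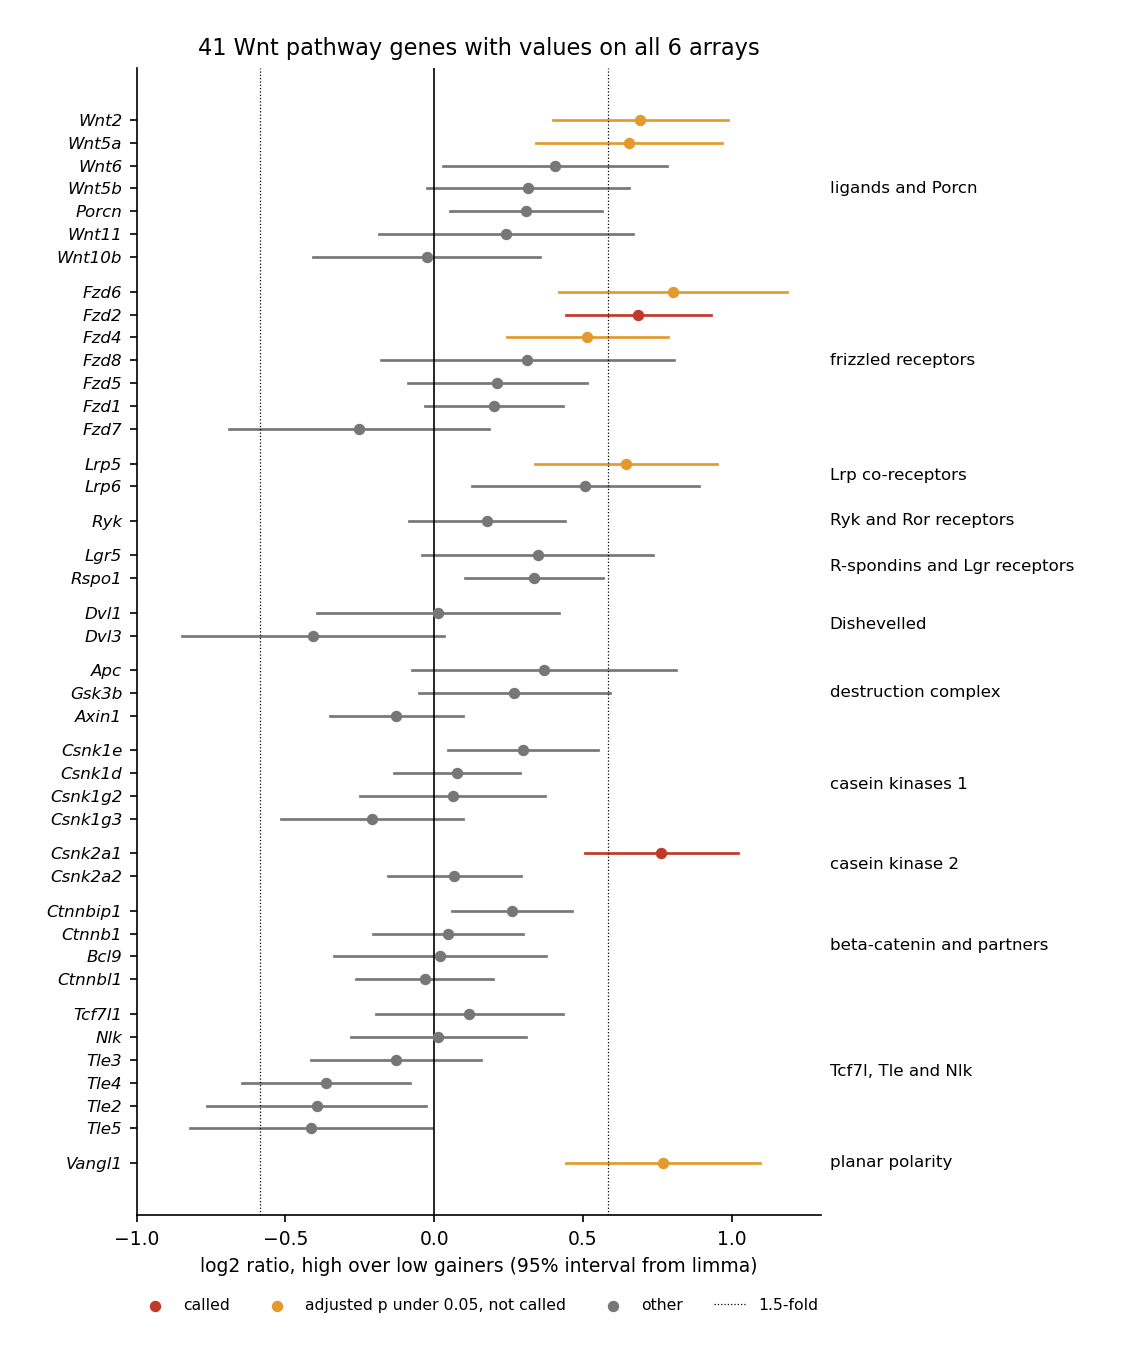
The log2 ratio of high over low gainers (horizontal axis) is plotted for the 41 genes with complete values, ordered by role, with the 95% interval from limma as a line and 1.5-fold dotted. Csnk2a1 and Fzd2 are the 2 called genes, and the 4 Tle genes all lie left of 0.

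By role, the 19 ligands, receptors and their partners at or outside the cell surface, with Porcn, had a median log2 ratio of 0.33, and 17 of 19 lay above 0. The other 22 genes, most of which act inside the cell, had a median of 0.03, and 14 of 22 lay above 0. Beside these, 4867 of 8596 genes tested lay above 0 with a median of 0.04, to which the 22 genes are close. With the adipocyte marker centring the medians were 0.14 and -0.16, the second the same as the -0.16 of the genes tested. Dim probes measured 10 of the 19 genes and 7 of the 22. Over the 41 genes, those with dim probes had the higher median (0.31 against 0.13). The part of probe brightness in the contrast was not tested. The 22 genes include Vangl1, a membrane protein (log2 0.77). These medians describe the lists and were not tested against each other.

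Sequence upstream of the start site is shown for each gene with adjusted p under 0.05, a probe not dim and a listed RefSeq promoter. The arrays do not show which start site the measured transcripts used. The stretches are the 250 bases before the RefSeq start site in GRCm38.p6. Csnk2a1 is at chr2:152226590-152226839 on the plus strand, Wnt2 at chr6:18030446-18030695 on the minus strand and Fzd4 at chr7:89404116-89404365 on the plus strand. Each is written 5′ to 3′ on the strand of the gene, and capitals mark matches to the GC box GGGCGG or its reverse complement CCGCCC:
Csnk2a1: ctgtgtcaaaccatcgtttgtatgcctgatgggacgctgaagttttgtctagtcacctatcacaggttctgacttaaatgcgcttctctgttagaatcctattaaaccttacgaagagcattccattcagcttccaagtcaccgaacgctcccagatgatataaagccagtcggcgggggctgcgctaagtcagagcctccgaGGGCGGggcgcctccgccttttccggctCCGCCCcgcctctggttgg
Wnt2: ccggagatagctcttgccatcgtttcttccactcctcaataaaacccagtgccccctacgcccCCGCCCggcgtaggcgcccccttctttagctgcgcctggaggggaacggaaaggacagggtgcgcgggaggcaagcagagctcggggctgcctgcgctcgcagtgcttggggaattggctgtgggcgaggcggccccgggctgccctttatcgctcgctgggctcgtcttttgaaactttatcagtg
Fzd4: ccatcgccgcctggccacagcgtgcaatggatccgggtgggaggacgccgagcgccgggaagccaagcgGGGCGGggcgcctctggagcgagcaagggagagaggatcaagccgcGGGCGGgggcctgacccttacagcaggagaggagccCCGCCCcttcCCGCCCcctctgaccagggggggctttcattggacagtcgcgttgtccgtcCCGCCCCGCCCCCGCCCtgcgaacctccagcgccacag

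Csnk2a1 held 2 such matches, Wnt2 held 1 and Fzd4 held 7, where neighbouring matches run together in the capitals. The letters taken here for a TCF site were CTTTGAA and CTTTGAT as well as CTTTGTA and also CTTTGTT, on either strand, and none of these 3 stretches held one. RefSeq promoters, searched from 250 bases before the start site, were matched for 49 of the 71 genes. Over their 62 promoters a GC box was found in 79.0%, beside 42.6% of promoters of protein-coding genes and 32.7% of all promoters. A TCF match was found in 4.84% of the 62, those of Fzd7, Wnt5b and Wnt11, beside 13.2% of protein-coding and 14.8% of all promoters. GC boxes are known to be common in promoters rich in G and C, and a match does not show that a factor binds.

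The arrays measured 6 Wnt ligands completely and called none of them. The paper describes small changes for Wnt2, Wnt5a and frizzled receptors and none detected for Wnt10b. It states that changes in Wnt and frizzled genes were not reproduced by qRT-PCR on individual mice and several fat depots. Wnt2, a ligand of the canonical branch, had signals of 32262, 38055 and 31115 on the high-gainer arrays and 23610, 19305 and 19839 on the low-gainer arrays. Every high-gainer array was above every low-gainer array. Its ratio was 1.62-fold (log2 0.69, SE 0.13, n = 3 arrays each) with an adjusted p of 0.0104 from limma, just outside the threshold. Wnt2 passed the threshold when dim probes were left out (adjusted p = 0.00302) and with an offset of 2848 added to all signals (adjusted p = 0.0024), and its adjusted p ran between 0.0017 and 0.0612 over 20 alternatives.

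Wnt5a, known mainly for signaling without beta-catenin, had signals of 4277, 4232 and 5351 in high gainers and 3253, 2905 and 2627 in low gainers. These groups did not overlap either, and the ratio was 1.57-fold (log2 0.65, SE 0.13) with an adjusted p of 0.0162 from limma. The probe is dim. Wnt10b had signals of 2014, 2527 and 2147 in high gainers and 1817, 2374 and 2669 in low gainers. The arrays of the pools were interleaved, the log2 ratio was -0.03 and the 95% interval ran from -0.41 to 0.36. This interval lay inside 1.5-fold in both directions, on a dim probe at percentile 5.4 of mean signal.

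The other ligands with complete values, Wnt5b, Wnt6 and Wnt11, had log2 ratios of 0.32, 0.41 and 0.24 with adjusted p from 0.136 to 0.42. Porcn, the enzyme that attaches the lipid to Wnt proteins, had a log2 ratio of 0.31 (adjusted p = 0.102 from limma), and its high-gainer arrays lay above its low-gainer arrays. With or without the adipocyte marker centring, 6 of the 7 genes in the group of ligands and Porcn lay above 0. All of the 7 except Wnt2 were on dim probes.

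**Figure D2:**
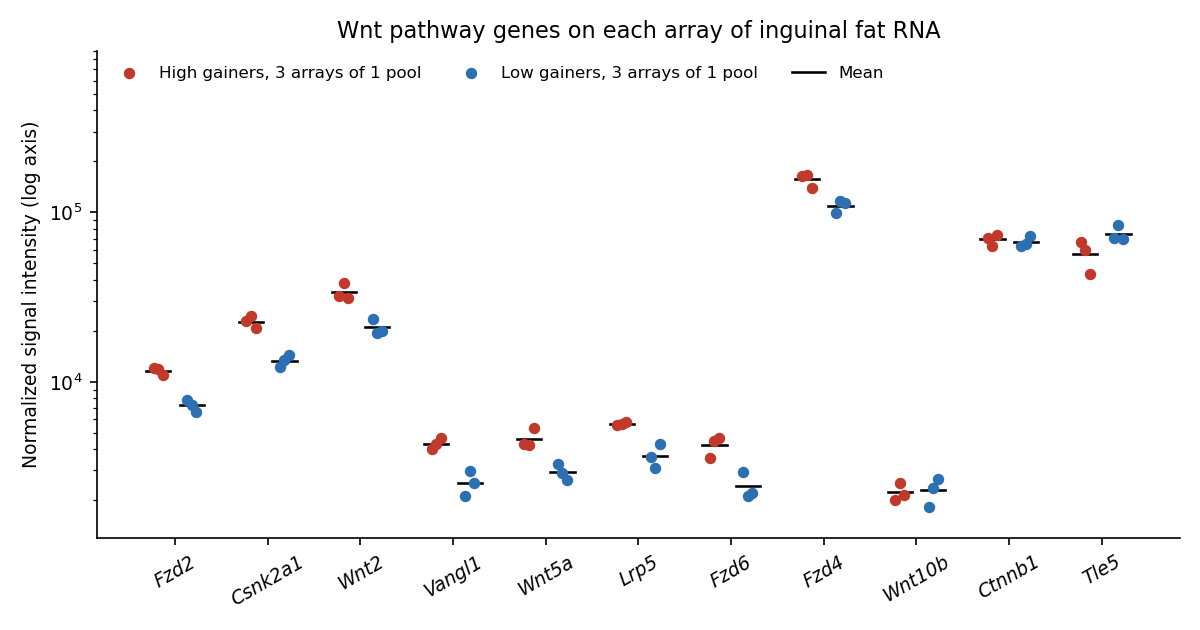
Normalized signal intensity (vertical log axis) is plotted for 11 Wnt pathway genes, with a point for each of 3 high-gainer arrays and 3 low-gainer arrays and a bar for each mean. Wnt10b and Ctnnb1 overlap between the pools, Tle5 is lower on every high-gainer array, and the other 8 genes are higher on every high-gainer array.

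Fzd2 was the only frizzled receptor called. Its signals were 12132, 11897 and 10932 in high gainers and 7831, 7299 and 6623 in low gainers. The lowest high-gainer array stood above the highest low-gainer array, and the difference was 1.61-fold (log2 0.69, SE 0.10, n = 3 arrays each, adjusted p = 0.00486 from limma). With single arrays omitted, the call held only without low-gainer array 1. It was lost without high-gainer array 1, 2 or 3 or low-gainer array 2 or 3, with adjusted p from 0.0113 to 0.0303, while the log2 ratio stayed between 0.62 and 0.74. Over 19 alternatives the adjusted p of Fzd2 ran between 0.00119 and 0.036, and its call was also lost with the adipocyte marker centring (log2 0.49) and with the offset (log2 0.52).

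Fzd4, a receptor known for its part in the growth of vessels in the retina, had signals of 163838, 166626 and 139378 in high gainers and 99274, 115967 and 113137 in low gainers. The groups did not overlap. Its ratio was 1.43-fold, below the fold threshold, with a log2 ratio of 0.52 (SE 0.12) and an adjusted p of 0.0230 from limma. Fzd6, a receptor tied to planar polarity in skin and hair, had signals of 3533, 4475 and 4647 in high gainers and 2936, 2130 and 2207 in low gainers on a dim probe. The groups did not overlap, and the ratio was 1.75-fold with a wide spread (log2 0.80, SE 0.16, adjusted p = 0.0161).

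Fzd1, Fzd5 and Fzd8 had log2 ratios of 0.20, 0.21 and 0.31 and were not called, with adjusted p from 0.218 to 0.366. For Fzd7 the brighter probe gave signals of 25175, 20947 and 30679 in high gainers and 25905, 28122 and 37587 in low gainers. These groups overlapped, and the log2 ratio was -0.25 (95% interval -0.69 to 0.18). A second probe of Fzd7 read 22211, 20987 and 22473 in high gainers and 19862, 16742 and 18847 in low gainers, a log2 ratio of 0.25 (adjusted p = 0.148 from limma). The direction for Fzd7 thus depended on the probe, and neither probe was called.

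The Lrp co-receptors, which join frizzled to start canonical signaling, were both above 0. Lrp5 had signals of 5553, 5647 and 5785 in high gainers and 3612, 3084 and 4272 in low gainers on a dim probe. The 3 high-gainer arrays were close together and above all low-gainer arrays, and the ratio was 1.56-fold (log2 0.64, SE 0.13, adjusted p = 0.0159 from limma). Lrp6 had signals of 12072, 11773 and 11082 in high gainers and 10300, 6568 and 8089 in low gainers. Here too the groups were apart, with a wider spread in low gainers, and the log2 ratio was 0.51 (SE 0.16, adjusted p = 0.0769). Its second, dim probe gave a log2 ratio of 0.45 (adjusted p = 0.0474), so the probes of Lrp6 differed little. Over the frizzled and Lrp genes together, 8 of 9 lay above 0 with a median log2 ratio of 0.51. The 7 frizzled genes alone had a median of 0.31. With the adipocyte marker centring, which adds -0.20 to all genes alike, the median of the 9 was 0.31 and 8 stayed above 0. Fzd1 and Fzd5, at 0.20 and 0.21 before this centring, stayed above 0 only narrowly.

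**Figure D3:**
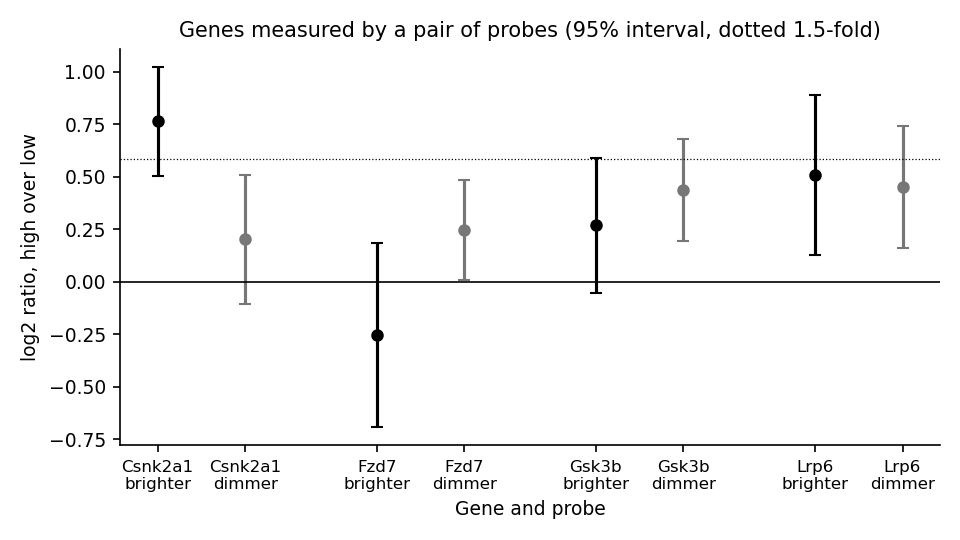
The log2 ratio of high over low gainers (vertical axis) with its 95% interval is plotted for the 4 genes that a pair of probes measured on all arrays. The probes of Lrp6 lie at 0.51 and 0.45, those of Fzd7 at -0.25 and 0.25, and those of Csnk2a1 at 0.76 and 0.20.

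The remaining surface genes with complete values were not called. Ryk, a Wnt receptor related to tyrosine kinases, had signals of 51095, 51455 and 41723 in high gainers and 43076, 42880 and 41130 in low gainers, which overlapped (log2 0.18, adjusted p = 0.338). Rspo1, a secreted protein that strengthens Wnt signals, had signals of 10916, 12327 and 11580 in high gainers and 9075, 8693 and 9846 in low gainers. Its arrays were apart, and its log2 ratio was 0.33 (SE 0.10, adjusted p = 0.0602 from limma). Lgr5, a receptor for R-spondins, had signals of 2398, 2455 and 2175 in high gainers and 2324, 1800 and 1484 in low gainers on a dim probe, with overlap (log2 0.35, adjusted p = 0.205).

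Inside the cell, Dishevelled passes the signal on from frizzled. Dvl1 had signals of 6154, 6784 and 4741 in high gainers and 6993, 5192 and 5305 in low gainers, and the groups overlapped (log2 0.01, 95% interval -0.39 to 0.42). Dvl3 had signals of 2165, 1872 and 2200 in high gainers and 3286, 2036 and 3104 in low gainers. High-gainer arrays 1 and 3 lay above low-gainer array 2, and the log2 ratio was -0.41 (SE 0.19, adjusted p = 0.194 from limma). Both probes are dim.

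No gene of the destruction complex was called. Axin1, its scaffold, had signals of 55285, 56514 and 56523 in high gainers and 65574, 56434 and 62154 in low gainers. The log2 ratio was -0.13 (95% interval -0.35 to 0.10). Apc, the other scaffold, had signals of 2129, 3155 and 2303 in high gainers and 2246, 2031 and 1573 in low gainers on a dim probe, which overlapped (log2 0.37, adjusted p = 0.237). Gsk3b is the kinase that marks beta-catenin. Its brighter probe read 47122, 43818 and 34356 in high gainers and 36847, 33875 and 32481 in low gainers, with overlap (log2 0.27, adjusted p = 0.234). The second Gsk3b probe read 37622, 41399 and 45000 in high gainers and 31327, 31212 and 28808 in low gainers. It had no overlap, and its log2 ratio was 0.44 (adjusted p = 0.0290 from limma), under 1.5-fold.

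Among the casein kinases, Csnk2a1, a catalytic subunit of casein kinase 2 that is known to phosphorylate Dishevelled and beta-catenin, rose in high gainers. Its signals were 22709, 24500 and 20733 in high gainers and 12197, 13447 and 14368 in low gainers. The groups were clearly apart, with a difference of 1.70-fold (log2 0.76, SE 0.11, n = 3 arrays each, adjusted p = 0.00402 from limma). A second, dim probe of Csnk2a1 read 7084, 6499 and 6605 in high gainers and 5077, 6937 and 5652 in low gainers. It overlapped between the pools (log2 0.20, adjusted p = 0.345), and with the mean over both probes the call was lost (log2 0.48, adjusted p = 0.0231). With single arrays omitted, the brighter probe passed only without high-gainer array 3, and it did not pass without high-gainer array 1 or 2 or low-gainer array 1, 2 or 3 (adjusted p from 0.0118 to 0.0232). Over 20 alternatives its adjusted p ran between 0.000661 and 0.0258, and the call was also lost with the adipocyte marker centring (log2 0.57).

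The other catalytic subunit, Csnk2a2, had signals of 33287, 36675 and 31711 in high gainers and 32518, 31760 and 32628 in low gainers, which overlapped (log2 0.07, 95% interval -0.16 to 0.29). In the casein kinase 1 family, Csnk1e, which acts on Dishevelled, had signals of 69645, 67589 and 69498 in high gainers and 60780, 58519 and 49391 in low gainers. Its arrays were apart at a log2 ratio of 0.30 (SE 0.11, adjusted p = 0.107 from limma). Csnk1g3, of the membrane-bound kinases that act on Lrp6, had signals of 12533, 11749 and 10892 in high gainers and 15287, 11456 and 14141 in low gainers, with overlap (log2 -0.21, adjusted p = 0.333). Csnk1d and Csnk1g2 had log2 ratios of 0.08 and 0.06.

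Ctnnb1, the gene of beta-catenin itself, had signals of 70941, 62986 and 73657 in high gainers and 63144, 64855 and 72899 in low gainers. The arrays were interleaved, and the 95% interval of the log2 ratio, -0.21 to 0.30 around 0.05, lay within 1.5-fold. This is a measure of mRNA, while beta-catenin is known to be controlled mainly through the stability of the protein. Ctnnbip1, an inhibitor that keeps beta-catenin from Tcf factors, had signals of 91511, 94369 and 94759 in high gainers and 77027, 80580 and 76696 in low gainers. All high-gainer arrays were higher, by 1.20-fold (log2 0.26, SE 0.09, adjusted p = 0.0839 from limma). Ctnnbl1, which bears a similar name but is known as a splicing protein, had signals of 14247, 13482 and 13259 in high gainers and 12896, 15039 and 14034 in low gainers, with overlap (log2 -0.03). Bcl9, a co-activator, had a log2 ratio of 0.02 on a dim probe.

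At the level of transcription, Tcf7l1, a Tcf factor known mostly as a repressor, had signals of 8343, 6782 and 8366 in high gainers and 6949, 6485 and 8216 in low gainers on a dim probe, with overlap (log2 0.12, adjusted p = 0.604). The Tle genes encode co-repressors that Tcf factors recruit, with Tle5 a short member that lacks the repeats of the others. Tle5 had signals of 67281, 60047 and 43458 in high gainers and 70456, 84063 and 70118 in low gainers. Every high-gainer array was below every low-gainer array, although the gap between 67281 and 70118 was small beside the spread (log2 -0.41, SE 0.17, adjusted p = 0.155 from limma). Tle2, Tle3 and Tle4 had log2 ratios of -0.40, -0.13 and -0.36 with adjusted p from 0.0836 to 0.531. All 4 Tle genes lay below 0, with a median log2 ratio of -0.38, and none was called. The adipocyte marker centring lowers every log2 ratio, so it could not turn these signs. Nlk, a kinase that acts on Tcf/Lef factors, had a log2 ratio of 0.01.

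Vangl1, a membrane protein of the planar polarity branch, had signals of 3997, 4275 and 4635 in high gainers and 2131, 2976 and 2516 in low gainers. The groups did not overlap, and the ratio was 1.71-fold (log2 0.77, SE 0.14, adjusted p = 0.0104 from limma) on a dim probe, just outside the threshold. Vangl1 was the only planar polarity gene of the list with complete values. Leaving out low-gainer array 2, its highest in that pool, brought Vangl1 past the threshold (adjusted p = 0.00912), and over 18 alternatives its adjusted p ran between 0.00912 and 0.0595. With the offset, which draws dim signals together, the log2 ratio was 0.41 for Vangl1, 0.42 for Fzd6, 0.39 for Lrp5 and 0.37 for Wnt5a.

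For 20 of the 41 genes the 95% interval lay inside 1.5-fold in both directions, among them Wnt10b, Dvl1, Axin1, Csnk2a2, Ctnnb1, Ctnnbip1 and Tcf7l1. For the other 21 it reached past 1.5-fold, so a difference of that size could be neither shown nor set aside for those that were not called. Among the 20, Porcn, Wnt10b, Dvl1, Bcl9 and Tcf7l1 were on dim probes. All these intervals come from technical repeats of 1 pool per group and do not reach the mice.

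Blank cells touched much of the list. The 11 genes with no value on any array were Wnt2b, Wnt3, Wnt4, Wnt7b, Wnt8a, Wnt9a, Wnt9b, Wnt10a, Wnt16, Rspo4 and Bcl9l, so 9 of the 19 genes in the group of ligands and Porcn gave no value. Of the 19 genes with some values, 7 had them only on high-gainer arrays, 4 only on low-gainer arrays and 8 in both pools. Axin2, the scaffold that is itself a widely used target of canonical signaling, had 1594 on high-gainer array 1 and blanks on the other 5 arrays. Wnt1 and Ror2 had values only on high-gainer array 3 (1934 and 1532), and Celsr3 and Daam1 only on high-gainer array 1 (1212 and 633). Celsr2 had 1115 and 866, and Daam2 had 1296 and 1196, on high-gainer arrays 1 and 2. The genes with values only in low gainers were Csnk1g1 (822 and 1264), Ror1 (1121 and 533), Rspo2 (1190) and Vangl2 (1846). None of these 11 genes had values on all 3 arrays of a pool, and no ratio was taken for them.

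Celsr1, a planar polarity cadherin found largely in epithelia, had signals of 2102 and 1929 on high-gainer arrays 2 and 3 and 6531, 3562 and 5015 on the low-gainer arrays. High-gainer array 1 was blank. With probes valued on at least 2 arrays of each pool admitted to the fit, and array 1 thus left out for this gene, Celsr1 had a log2 ratio of -1.28, or 2.43-fold lower in high gainers, with an adjusted p of 0.0255 from limma. It was not called. Of 12 epithelium markers, 7 had complete values, with a median log2 ratio of -1.53, and Epcam, Krt19, Cldn7 and Krt5 had blanks. In high gainers 4 of the 7 fell, Krt8, Krt18, Krt7 and Cdh1 (against 4.04% of the genes tested). Krt14 (log2 -0.95), Cldn3 (log2 0.19) and Cldn4 (log2 -0.19) were not called. Summed signals, in which Cldn4 had the brightest probe, were 91201 to 130461 in high gainers and 145727 to 172330 in low gainers. Whether epithelial cells have a part in the Celsr1 values was not tested. In the same fit Dvl2 and Wnt7a had log2 ratios of -0.28 and -0.04 and were not called. Fzd10, Lrp4, Rspo3, Tle6 and Wnt3a had a single value in 1 of the pools.

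**Figure D4:**
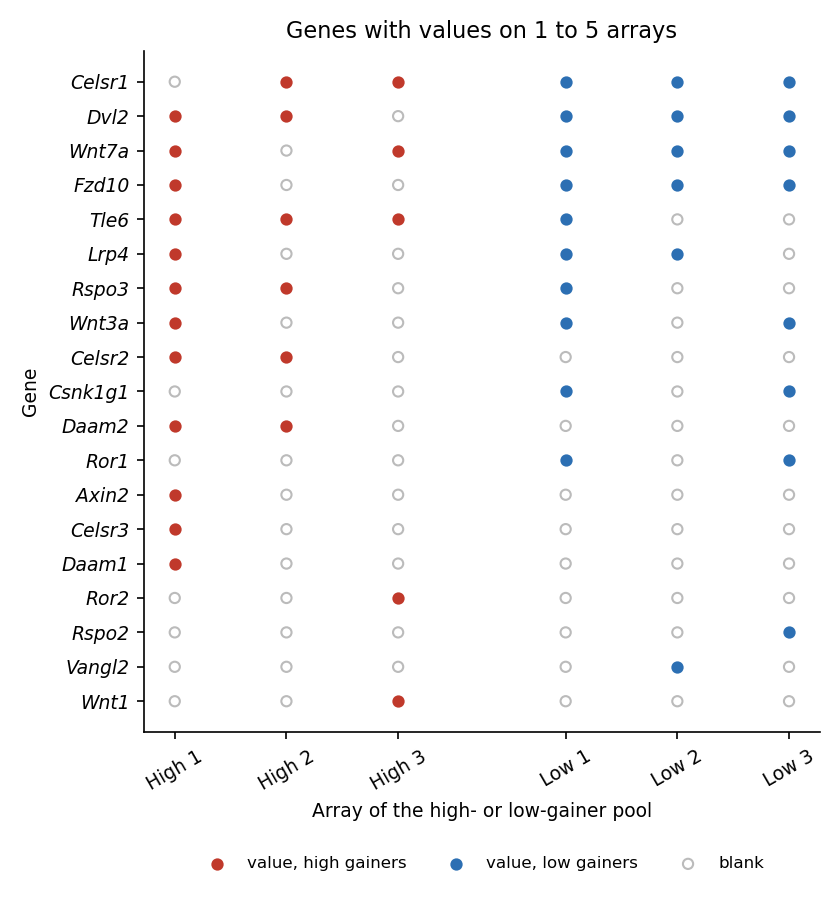
For the 19 genes with values on 1 to 5 arrays (rows), a filled point marks an array (columns, high gainers left, low gainers right) with a value and an open point a blank. Celsr1, Dvl2 and Wnt7a have 5 values each, and 7 genes have values on high-gainer arrays only.

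Other genes of the pathway were set beside these. Of 20 listed inhibitors, 8 had complete values and 9 had blanks. Those 8 had a median log2 ratio of 0.55, beside 0.03 over all tested probes. None of the 8 fell (against 4.04% of the genes tested), while 4 rose in high gainers (against 2.91%). These were Sfrp5 and Sfrp4, secreted proteins that resemble frizzled and bind Wnts (log2 1.99 and 0.75), Dact2, which binds Dishevelled (log2 1.32), and Apcdd1, a membrane inhibitor (log2 0.73), with adjusted p from 0.000174 to 0.00976 in limma. Of 31 listed transcriptional targets, 12 had complete values and 9 had blanks. Of the 12, none rose (against 2.91% of the genes tested) and 2 fell, Lef1 and Myc (against 4.04%). The median log2 ratio of the 12 was 0.03. At a share of 2.91%, 12 genes would hold few higher calls or none, so their absence says little about the targets.

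Lef1, both a target and a nuclear partner of beta-catenin, had signals of 5780, 5126 and 7028 in high gainers and 14283, 17683 and 17334 in low gainers (log2 -1.46, adjusted p = 0.000818 from limma). Myc had signals of 15797, 17374 and 14211 in high gainers and 28808, 28034 and 27229 in low gainers (log2 -0.83, adjusted p = 0.00221). Both genes are also known to be expressed in lymphocytes, whose markers were lower in high gainers. Of 14 T lymphocyte markers 9 had complete values, Cd3e had blanks and 7 fell (against 4.04% of the genes tested). Summed signals of the 9 were 130063 to 155602 in high gainers and 387575 to 441286 in low gainers. Of 12 B lymphocyte markers 9 had complete values, Blk had blanks and all 9 fell, with summed signals of 173617 to 183120 in high gainers and 547750 to 571595 in low gainers. The part of lymphocytes in the Lef1 and Myc values was not tested. Of the targets not called, Ccnd1, Bambi, Jun and Ccn1 had log2 ratios of -0.04, 0.07, 0.10 and -0.01. Ccnd2, Ccn5, Ccn4 and Notum were at 0.12, 0.11, 0.31 and -0.27. Fosl1 was at 0.53 and Cd44 at -0.50, with adjusted p of 0.0471 and 0.0263 from limma.

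Of 39 other listed transducers, 24 had complete values. None rose (against 2.91% of the genes tested) and 1 of 24 fell, which is close to the 4.04% of the genes tested. That gene was Ppp2ca, a catalytic subunit of protein phosphatase 2A, on a dim probe (log2 -0.88, adjusted p = 0.0012 from limma). Ppp2cb, the other catalytic subunit, had a log2 ratio of 0.03. Of 29 listed genes of the planar polarity and calcium branches, 17 had complete values and none was called (median log2 ratio 0.09). At these shares, a list this short would hold few calls or none.

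The tissue was checked against marker lists. Of all genes tested, 2.91% rose and 4.04% fell. As units differ between probes, each summed signal follows the brightest probes of its list. It does not measure the amount of a cell type. Of 17 adipocyte markers, which define the labelled tissue, 12 had complete values. Of these 2 rose in high gainers, Lep and Plin4, with a median log2 ratio of 0.18 and summed signals of 6675724 to 6863518 in high gainers and 5623931 to 6059743 in low gainers. Markers of smooth muscle and pericytes, all 9 with complete values, had a median log2 ratio of 0.48 with none called, and summed signals of 422918 to 445211 in high gainers and 314833 to 323752 in low gainers. Endothelial markers, 6 of 8 with complete values and Vwf partly blank, had a median of 0.27 with none called and summed signals of 334800 to 389904 in high gainers and 312078 to 329072 in low gainers. Stromal progenitor markers, 12 of 15 with complete values, had a median of 0.31. Of these Pi16 rose and Thy1 fell, Dlk1 was partly blank, and the sums were 3410273 to 3901533 in high gainers and 3064741 to 3716773 in low gainers. Beside these values the 7 frizzled genes alone had a median of 0.31, and the frizzled and Lrp genes together had 0.51. The part of these cell types in the frizzled and Lrp values was not tested.

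**Figure D5:**
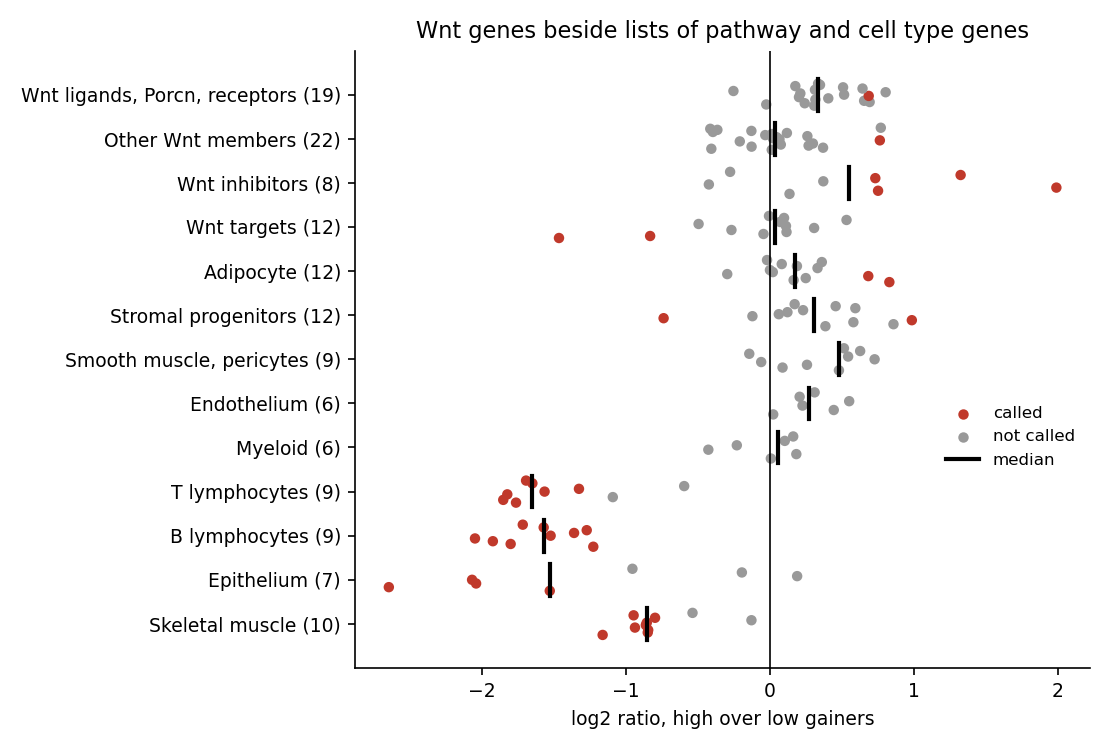
Each point is the log2 ratio of high over low gainers (horizontal axis) of 1 gene with complete values, in rows by list with the number of genes in brackets, and a bar marks each median. The Wnt ligands, Porcn and receptors have a median of 0.33, between adipocyte markers at 0.18 and smooth muscle and pericyte markers at 0.48, while the medians of lymphocyte, epithelium and skeletal muscle markers lie below 0.

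Of 10 myeloid markers 6 had complete values and none was called (median log2 ratio 0.06). Of 13 skeletal muscle markers 10 had complete values and 8 fell in high gainers (median log2 ratio -0.85). Over all tested probes 396 rose and 632 fell in high gainers. With the adipocyte marker centring, which took the median of all tested probes to -0.17, 131 rose and 989 fell. Arrays of 1 pool correlated at 0.988 to 0.994 across probes, and arrays of different pools at 0.972 to 0.980, as a description over probes that are not independent.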

How the data were processed

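Inguinal fat RNA of high and low gainers was measured on 6 one-color Applied Biosystems mouse arrays, 3 for each pool of 8 mice. The deposited table holds linear signal intensities, which the authors obtained by chemiluminescent detection of labeled cRNA and normalized across arrays by the quantile method. Cells are blank where no value is given. The methods describe a detection filter, and neither they nor the labels say how it relates to the blanks. Between 18018 and 20605 of 33012 probes had values on an array, and the number of arrays limits the precision.

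Signals of the 15821 probes with complete values were put on the log2 scale without a pseudocount or further normalization, and the pools were compared by limma 3.58.1 under R 4.3.3, using lmFit and eBayes. P-values were adjusted over all 15821 probes by the Benjamini-Hochberg method, and calls needed an adjusted p under 0.01 and a 1.5-fold change. The methods' t-test, their analysis of variance for 2 groups, was run on the same values. The procedure was tested on simulated data. Symbols came from the platform annotation, updated by gene ID: 14411 probes had 1 symbol, 247 had several and 18354 had none. A gene with several complete probes was represented by its brightest, and the other probe is given beside it. The shares of all genes printed beside member counts use 8596 genes by the same rule, in place of the 15821 probes first planned as the background, a choice made after the values were seen.

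The Wnt pathway genes and all gene lists were chosen with earlier results of these data known. Signals on every array are given for genes marked by limma or the methods' t-test, for the highest and lowest ratio within each role, for well-known pathway genes, and for genes blank throughout 1 pool. Fzd7 and Gsk3b probes, Celsr1, Lef1 and Myc were added after their values were seen. Tcf7l2, Btrc and the Prickle genes are not analysed here. Alternatives covered scaling, filters, an offset, variance estimation, the block on replicate number, thresholds, the rule for several probes and leaving out each array. Same-numbered arrays did not deviate together in every pair, so the numbers were not taken as pairs.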

Additional observations from a re-analysis of the deposited data

How the results depend on the processing

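The 2 called Wnt pathway genes became 0 with the adipocyte marker centring, 0 with the replicate block, 0 with the methods' t-test after Benjamini-Hochberg adjustment, 1 with the probes of each gene averaged, 6 with the methods' t-test unadjusted, 7 with an adjusted p under 0.05 and 1.5-fold, and 8 with an adjusted p under 0.05 alone. With 1 array left out, 0 to 1 were called (0 without high-gainer array 1 or 2 or low-gainer array 3), and no alternative called a lower one. Over all probes, the 396 higher calls became 131 with the adipocyte marker centring, 238 without probes below the median, 173 with the replicate block, 46 with the methods' t-test after adjustment, 695 with an adjusted p under 0.05 and 1.5-fold, 1403 without the fold threshold, and 105 to 319 with 1 array left out. The 632 lower calls became 989, 306, 446, 111, 843 and 1221 under the same alternatives and 368 to 493 with 1 array left out. The same-number correlations of deviations were 0.04, -0.11 and 0.27, so the block rests on a shared number only.

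The median log2 ratio of 0.21 was 0.015 with the adipocyte marker centring, where that of all probes was -0.17 in place of 0.03, and 0.13 without the lowest 33.3% of probes or without those below the median. Genes near 0 changed sign. The adipocyte marker centring adds -0.20 to every gene and so turns small positive ratios by construction: Ryk was at -0.021, Dvl1 at -0.18, Csnk2a2 at -0.13, Ctnnb1 at -0.15 and Tcf7l1 at -0.079. Without high-gainer array 1, Wnt10b was at 0.04 and Dvl1 at -0.03, and without high-gainer array 2 Dvl1 was at -0.10. Without low-gainer array 2, Wnt10b was at 0.01, Dvl1 at -0.06 and Ctnnbl1 at 0.022, and without low-gainer array 3 Wnt10b was at 0.10 and Dvl1 at -0.05. With each array left out in turn, Wnt10b ranged from -0.18 to 0.10, Dvl1 from -0.10 to 0.16 and Ctnnbl1 from -0.089 to 0.022. Over the 27 genes given with all values, 464 results kept direction and side of the threshold, 18 were no longer called, 20 became called and 13 changed sign, those with this centring included. Calls gained at an adjusted p under 0.05 or by the methods' unadjusted t-test come with a looser threshold on the same log2 ratios. For the other changes the cause was not tested. The 17 dim probes limit what can be shown for 17 of 41 genes.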
